A study of Homo sapiens with 6 samples.

Results

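The HOX genes encode homeodomain transcription factors that set position along the body axis, and in people they lie in the clusters HOXA, HOXB, HOXC and HOXD. All 38 HOX genes of a list of symbols matched a row of a table of estimated RNA-seq counts for 59715 gene IDs, 10 in HOXA, 10 in HOXB, 9 in HOXC and 9 in HOXD. The cells were HCT116, an established human colorectal carcinoma line, sequenced as poly(A)-selected RNA. There were 3 libraries of wild-type cells (MLL4WT) and 3 of cells in which the histone methyltransferase MLL4 was knocked out (MLL4KO), and the labels name no treatment or time for either group. The labels do not say whether the knockout is 1 clone, and nothing says that replicates were grown separately, so p-values measure the spread between these samples only, which may be technical.

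Within a cluster the genes are numbered by paralogue group, low numbers at the 3′ end and high numbers at the 5′ end, and genes of one number in different clusters descend from one ancestral gene. In the embryo the 3′ genes are used earlier and nearer the head, the 5′ genes later and nearer the tail, and part of this regional pattern persists in adult gut epithelium. Active HOX genes carry H3K4 methylation placed by enzymes of the trithorax side, to which the MLL proteins belong, and silent ones carry marks of the Polycomb complexes. MLL4 in human cells usually means KMT2D, an enzyme of enhancer H3K4 monomethylation, although KMT2B has had the same name. The series title names H3K4 methylation and p53-dependent transcription as its subjects, and the comparison here asks how the HOX genes differ between the genotypes.

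Library totals ranged from 6829400 to 19736751 counts, and the shallowest, MLL4WT replicate 1, stood apart from the other MLL4WT libraries (chi-square per degree of freedom 7.36 and 7.49, against 1.85 to 2.46 for the other pairs of one genotype). Results that rest on it are given without it as well. KMT2D was at 231 to 240 CPM (counts relative to the scaled library total) in MLL4WT and 225 to 243 CPM in MLL4KO, and KMT2B at 87.2 to 94.1 and 60.6 to 67.1 CPM. Where the gene was cut is not stated in the labels, so these gene-wide counts cannot serve as a check of the knockout. Of a list of colon epithelium genes, EPCAM, KRT8, KRT18 and KRT19 were at 187 CPM or more in every library. These 4 fell in MLL4KO by 1.23-fold to 1.63-fold. Not every gene of that list fell. CDH1, at 10.3 to 12.1 CPM, and the intestinal regulator CDX2, at 26.3 to 31.8 CPM, did not pass the test (edgeR adjusted p = 0.864 and 0.341). VIL1 and LGALS4 were at 1.19 CPM or less, CDX1 was at 0 and CDH17 at or near 0. Summed over each list, leukocyte markers were at 0.743 to 1.17 CPM in MLL4WT and 0.696 to 1.86 CPM in MLL4KO, and endothelial markers at 1.78 to 2.19 and 2.88 to 3.76 CPM. The fibroblast list summed to 28.2 to 29 CPM in MLL4WT and 27.3 to 30.7 CPM in MLL4KO, with DCN and LUM at 0.48 CPM or less. Within it COL1A1, most of the sum, rose 1.22-fold and COL3A1 fell 6.90-fold, from 4.94 to 5.51 CPM in MLL4WT to 0.398 to 1.13 CPM in MLL4KO (edgeR adjusted p = 0.0106 and 1.57e-05). The neuronal list summed to 210 to 233 CPM in MLL4WT and 137 to 145 CPM in MLL4KO, nearly all of it TUBB3, which fell 1.59-fold (edgeR adjusted p = 1.26e-06). The part of these differences in the HOX results was not tested.

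In MLL4WT the HOX genes were used very unevenly, with most of the RNA from HOXA and almost none from HOXD. Summed over the 38 genes, HOX transcripts made up 334 ± 22 CPM in MLL4WT and 332 ± 0.0725 CPM in MLL4KO (SD, n = 3). HOXA held 62.8, 63.2 and 64.8% of this sum in the MLL4WT libraries, HOXB 21.2 to 22.2%, HOXC 12 to 13.3% and HOXD 1.57 to 1.97%. Paralogues 9 to 13, the 5′ genes, held 59.7 ± 0.398% of HOX counts in MLL4WT.

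Per kilobase of exon, a scale on which genes of different length can be set side by side, HOXA9 stood highest in MLL4WT at 23.7 CPM per kb. HOXA9, a leukaemia-linked 5′ gene, was followed by HOXB7 (18.8 CPM per kb), HOXA10 (13.7) and HOXA7 (11.6). HOXA11, HOXB13, HOXC9 and HOXA5 lay between 4.76 and 6.96 CPM per kb. The lowest members that could be tested were HOXB3 (0.657 CPM per kb), HOXC4 (0.44) and HOXC8 (0.364). With the longest annotated transcript as the length the first 5 kept their order. HOXC5, HOXA4, HOXA3, HOXC13 and HOXC10 were at 3.72 to 4.12 CPM per kb in MLL4WT, a run of neighbours whose levels did not differ by more than about their spread.

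**Figure D1:**
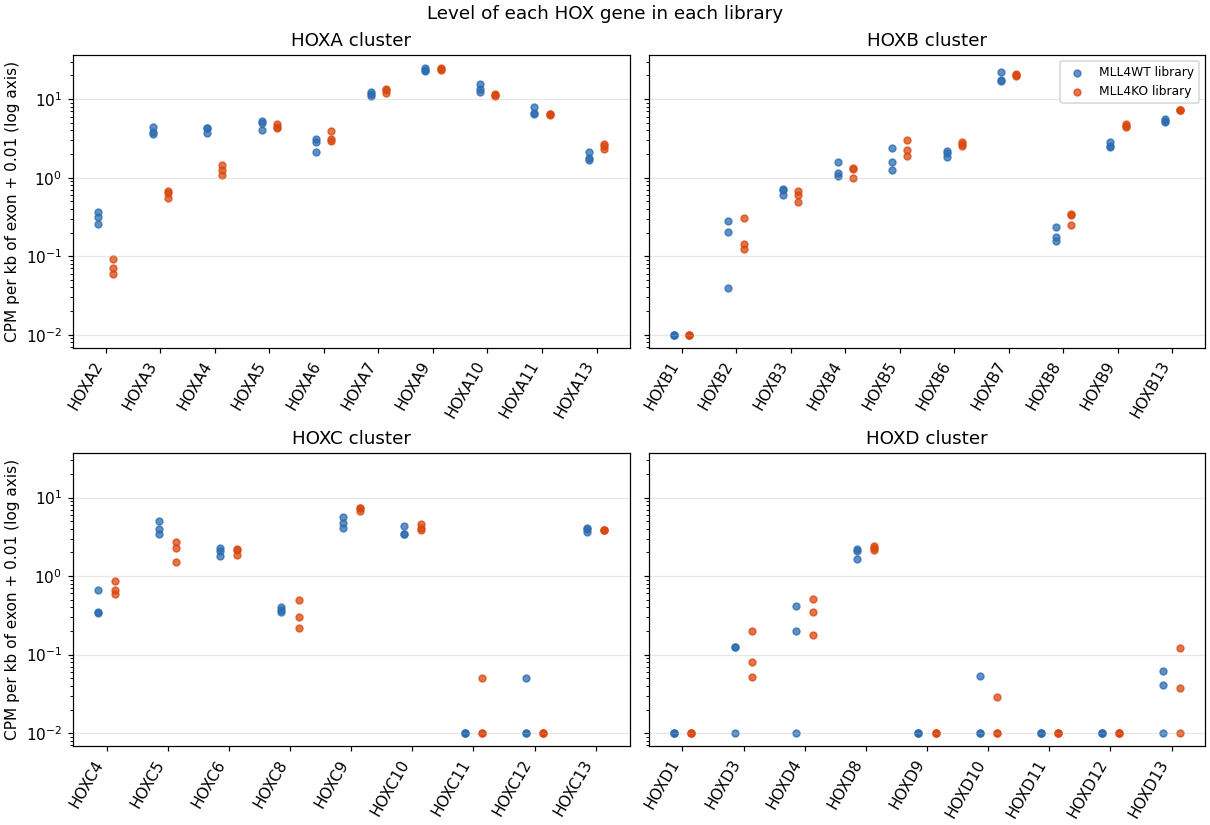
Level of each of the 38 HOX genes in each library, as CPM per kilobase of exon plus 0.01 on a log axis, by cluster with the 3′ genes on the left. Blue points are MLL4WT libraries and orange points MLL4KO libraries. HOXA9 is highest in both genotypes, HOXA2, HOXA3 and HOXA4 are lower in every MLL4KO library, and HOXB1, HOXD1, HOXD9, HOXD11 and HOXD12, with no counts, sit at the bottom of the axis.

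Of the 38 genes, 24 passed the filter on low counts and 14 did not. Of those 14, HOXB1, HOXD1, HOXD9, HOXD11 and HOXD12 had no count in any library. A floor of 3 counts over a group corresponds to 0.0756 CPM in MLL4WT and 0.0596 CPM in MLL4KO, counting error only. HOXC11 and HOXC12 had 2 counts each in all, HOXD10 had 3 and HOXD13 had 9. HOXA2, HOXB2, HOXB8, HOXD3 and HOXD4 had 30 to 46 counts in all, and no member outside the filter exceeded 0.862 CPM in any library. In HOXD the single gene with counts enough to test was HOXD8.

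Among the 24 tested HOX genes 5 rose and 4 fell in MLL4KO, and the other 15 missed the threshold (edgeR quasi-likelihood test, Benjamini-Hochberg adjusted p under 0.05). That is 37.5% called, where 41.4% of all 14543 tested genes were called, 19.8% upward and 21.6% downward. The share of HOX genes called was thus near that of all genes. Their median log2 fold change was 0.08, beside 0 for all tested genes. The 3 libraries of one genotype lay wholly above those of the other in 9 of the 24 (37.5%) and in 52.5% of all tested genes. Rises of at least 1.5-fold were called in 2 HOX genes (HOXB9 and HOXC9) and in 6.56% of all tested genes, and falls of that size in 3 (HOXA3, HOXA4 and HOXC5) and in 5.35%. At 2-fold or more, 2 HOX genes fell, HOXA3 and HOXA4, where 2.25% of all tested genes did, and 0 rose, where 2.72% did. With total counts in place of scaled libraries 6 HOX genes rose and 3 fell, and over all genes 3706 rose and 2394 fell in place of 2885 and 3136.

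**Figure D2:**
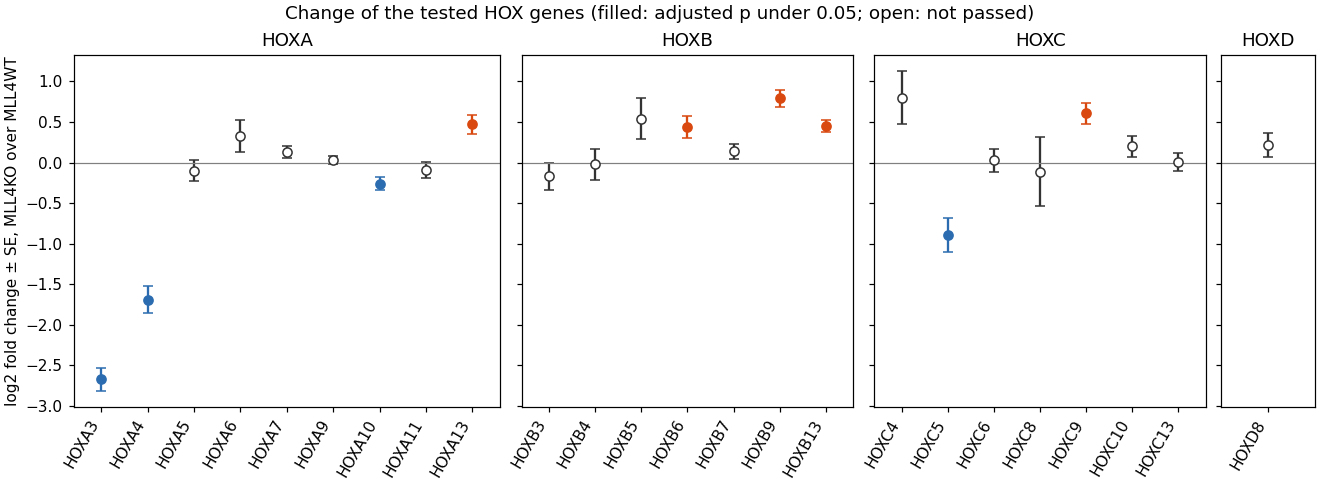
Log2 fold change of MLL4KO over MLL4WT with its standard error for the 24 tested HOX genes, by cluster with the 3′ genes on the left. Filled points passed the test and open points did not. HOXA3 at -2.67 and HOXA4 at -1.69 lie far below all other members, and the filled points above 0 are HOXA13, HOXB6, HOXB9, HOXB13 and HOXC9.

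The 3′ genes of HOXA were the ones that lost most of their RNA. HOXA3, which patterns the pharyngeal organs (chromosome 7, 27106184 to 27152581, minus strand, GRCh38), was at 19.0, 15.6 and 16.2 CPM in MLL4WT replicates 1 to 3 and at 2.69, 2.83 and 2.33 CPM in those of MLL4KO. All 3 MLL4KO libraries lay far under all 3 MLL4WT libraries. The fall was 6.36-fold (log2 -2.67 ± 0.14 SE, edgeR adjusted p = 4.08e-08). HOXA4, the gene next in number (27128507 to 27130799), lies within the annotated span of HOXA3. HOXA4 was at 7.58, 7.41 and 6.43 CPM in MLL4WT and 1.89, 2.53 and 2.19 CPM in MLL4KO. Again the groups were well apart, and HOXA4 fell 3.22-fold (log2 -1.69 ± 0.17, edgeR adjusted p = 1.27e-05).

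HOXA2, a hindbrain and pharyngeal arch gene at the 3′ side of HOXA3 (27100354 to 27102811), was too low for the filter. Its counts were 5, 9 and 15 in MLL4WT and 3, 2 and 3 in MLL4KO, or 0.743, 0.617 and 0.862 CPM against 0.149, 0.123 and 0.199 CPM. The groups did not overlap, and with no filter on low counts HOXA2 was 4.53-fold lower (edgeR adjusted p = 0.00892). With few counts the size of that difference is uncertain (log2 -2.18 ± 0.69).

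Past HOXA4 the next gene did not pass the test. HOXA5, a gene of lung and gut development that begins 5′ of HOXA4 (27141052 to 27143668), was at 6.98, 8.51 and 8.90 CPM in MLL4WT and 7.56, 7.33 and 8.31 CPM in MLL4KO. The ranges overlapped, and the ratio of MLL4KO to MLL4WT had a 95% interval of 0.768 to 1.13 (edgeR adjusted p = 0.547). HOXA6 was at 2.74 to 4.01 CPM in MLL4WT and 3.72 to 4.97 CPM in MLL4KO (interval of the ratio 0.933 to 1.69). HOXA7 was at 26.2, 28.1 and 29.8 CPM and 32.1, 29.2 and 31.6 CPM (interval 0.982 to 1.23). Neither passed the test, with edgeR adjusted p of 0.206 and 0.169. HOXA6 passed it upward with a term for the run code, a code that groups libraries in the column names, and with GC and length trends removed (log2 0.48 and 0.52), and HOXA7 with total counts and with those trends removed (log2 0.20 and 0.24).

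HOXA9, the most abundant HOX transcript (27162435 to 27175180), was at 74.6, 69.3 and 71.1 CPM in MLL4WT and 71.2, 74.9 and 72.3 CPM in MLL4KO. The values interleaved, and the 95% interval of the ratio, 0.943 to 1.1, was the narrowest among the members on the log scale. HOXA10, a gene of the uterus and of blood progenitors (27170591 to 27180261), was at 57.5, 45.2 and 49.6 CPM in MLL4WT and 40.3, 43.2 and 42.1 CPM in MLL4KO. It fell 1.20-fold (edgeR adjusted p = 0.0204), and 8 of the 18 alternative settings lost the call, among them total counts (adjusted p = 0.0746) and leaving out any 1 of the MLL4KO libraries (0.058 to 0.111). HOXA11 was at 14.8 to 18.3 CPM in MLL4WT and 14.5 to 15.0 CPM in MLL4KO (edgeR adjusted p = 0.465).

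HOXA13, the last gene at the 5′ end, needed for the hindgut and the distal limb (27193503 to 27200106), was at 10.6, 8.57 and 9.07 CPM in MLL4WT and 13, 11.6 and 13.7 CPM in MLL4KO. Every MLL4KO library was above every MLL4WT library, and HOXA13 rose 1.38-fold (log2 0.47 ± 0.12, edgeR adjusted p = 0.00663). The call was lost when all libraries were thinned to the depth of the shallowest (adjusted p = 0.0755). HOXA thus held a fall at one end, a rise at the other and values that passed only for HOXA10 between them. The 3 genes HOXA2 to HOXA4 summed to 24.8 ± 2.17 CPM in MLL4WT and 4.98 ± 0.44 CPM in MLL4KO, and HOXA5 to HOXA13 to 187 ± 10.3 and 185 ± 1.36 CPM (SD, n = 3). The share of HOXA counts from HOXA2 to HOXA4 was 12.1, 11.8 and 11.2% in MLL4WT and 2.51, 2.87 and 2.47% in MLL4KO.

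The fall of HOXA3 and HOXA4 was about as large within each run code. The codes place MLL4WT replicate 2 with MLL4KO replicates 2 and 3, and MLL4WT replicate 3 with MLL4KO replicate 1. The log2 ratio of HOXA3 within those codes was -2.60 and -2.59, and that of HOXA4 was -1.65 and -1.77. MLL4WT replicate 1 was alone on its code, and without it the log2 fold changes were -2.59 for HOXA3 and -1.65 for HOXA4. Among the other called members, the log2 ratio within the codes was -0.08 and -0.30 for HOXA10, 0.56 and 0.52 for HOXA13, 0.34 and 0.65 for HOXB6, 0.85 and 0.67 for HOXB9, 0.39 and 0.46 for HOXB13 and 0.56 and 0.85 for HOXC9. All kept their direction in both, and that of HOXA10 was near 0 in the first.

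**Figure D3:**
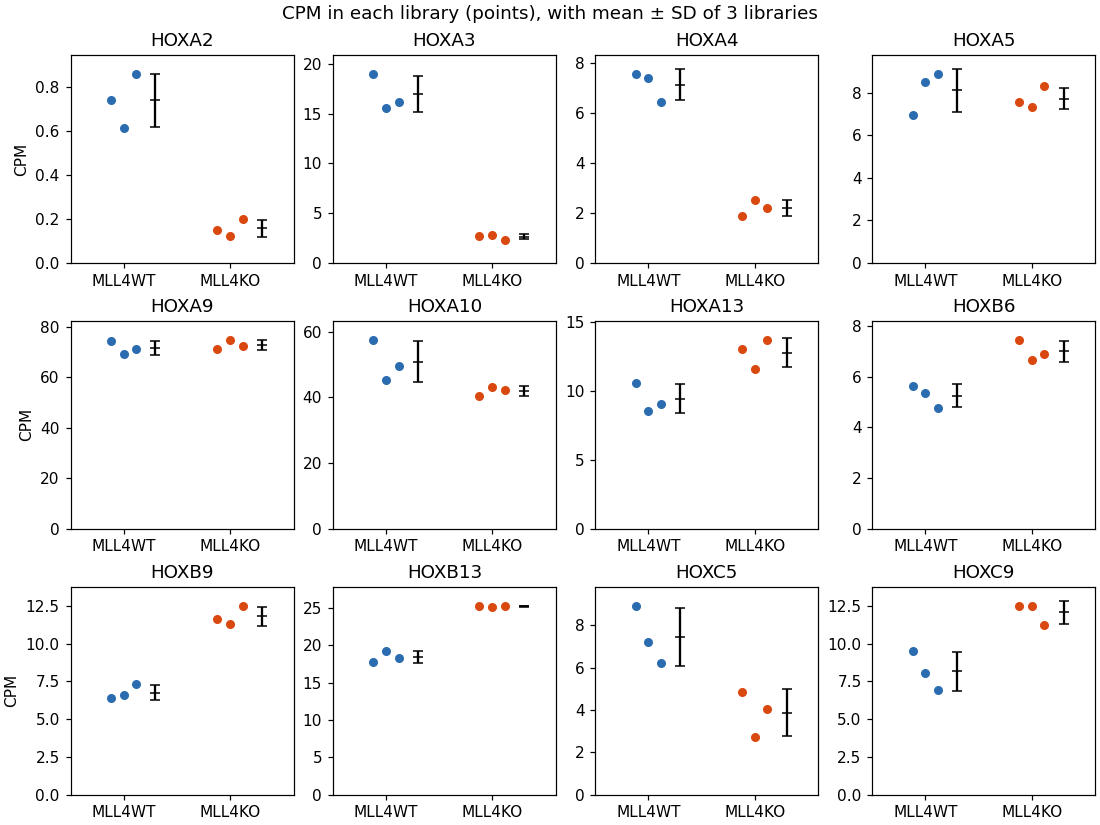
CPM of 12 HOX genes in each library, with the mean and SD of the 3 libraries of a genotype beside the points and axes from 0. The MLL4KO points of HOXA2, HOXA3, HOXA4, HOXA10 and HOXC5 lie below all MLL4WT points, those of HOXA13, HOXB6, HOXB9, HOXB13 and HOXC9 lie above them, and those of HOXA5 and HOXA9 overlap with them.

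Promoter windows were taken from RefSeq (GRCh38.p14) as the 250 bases before each gene's start, and 19 of the 38 genes matched, with 26 windows between them. The windows below are those of the 3 lowered HOXA genes and, for contrast, of HOXA9 and HOXA13. Capitals mark any match, on either strand, to the CCAAT box (CCAAT), the TATA box (TATAAA), a caudal-type motif (TTTATG) or a composite motif of HOX and TALE proteins (TGATNNAT). All 5 windows are on the minus strand, at chr7:27102684-27102933 for HOXA2, chr7:27152584-27152833 for the farthest of the 7 RefSeq starts of HOXA3, chr7:27130758-27131007 for HOXA4, chr7:27165538-27165787 for HOXA9 and chr7:27200092-27200341 for HOXA13.
HOXA2: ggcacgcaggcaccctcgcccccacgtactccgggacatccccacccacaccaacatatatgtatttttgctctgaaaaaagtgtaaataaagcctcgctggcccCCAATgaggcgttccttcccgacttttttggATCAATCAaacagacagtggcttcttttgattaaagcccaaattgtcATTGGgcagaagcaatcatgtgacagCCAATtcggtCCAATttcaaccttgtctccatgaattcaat
HOXA3: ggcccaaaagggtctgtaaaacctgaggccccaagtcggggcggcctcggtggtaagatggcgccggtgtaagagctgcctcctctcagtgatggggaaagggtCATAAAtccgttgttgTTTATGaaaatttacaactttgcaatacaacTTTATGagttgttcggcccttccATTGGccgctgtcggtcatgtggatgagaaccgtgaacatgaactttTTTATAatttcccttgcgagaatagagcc
HOXA4: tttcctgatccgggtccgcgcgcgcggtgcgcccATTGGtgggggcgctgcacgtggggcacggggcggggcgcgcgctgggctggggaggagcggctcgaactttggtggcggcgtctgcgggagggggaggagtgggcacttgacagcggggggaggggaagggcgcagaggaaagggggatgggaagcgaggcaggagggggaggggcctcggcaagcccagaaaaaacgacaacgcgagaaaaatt
HOXA9: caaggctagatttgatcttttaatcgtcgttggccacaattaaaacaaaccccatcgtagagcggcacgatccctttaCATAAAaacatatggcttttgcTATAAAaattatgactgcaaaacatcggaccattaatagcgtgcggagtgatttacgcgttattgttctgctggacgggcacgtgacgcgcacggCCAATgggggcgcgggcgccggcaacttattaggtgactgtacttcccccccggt
HOXA13: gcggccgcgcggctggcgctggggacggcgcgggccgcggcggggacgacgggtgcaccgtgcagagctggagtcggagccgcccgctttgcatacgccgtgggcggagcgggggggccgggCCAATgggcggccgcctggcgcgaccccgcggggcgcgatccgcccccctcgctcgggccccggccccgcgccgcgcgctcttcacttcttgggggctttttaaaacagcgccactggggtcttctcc

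The windows of the lowered genes were not alike in composition. HOXA2 had 8 CpG dinucleotides in its window, HOXA3 had 11 in the one shown and HOXA4 had 26, against 20 in HOXA9 and 40 in HOXA13. The median was 19.5 over the 26 HOX windows, 7 of which are of HOXA3, and 11 over all 34943 windows. The CCAAT box was found in 17 of the 26 HOX windows and in 32.0% of all windows, 4 times in that of HOXA2. TATAAA was found in 5 of the 26 and in 10.8% of all, TTTATG in 3 and 9.66%, and TGATNNAT in 3 and 6.49%. The p53 half-site, searched because p53 is a subject of the series, was found in 2 of the 26 and in 5.58% of all. TGATNNAT can share end bases with the other motifs, and a match is a description of letters only. Because HOXA3 has several starts, 2 of them 5′ of HOXA6, the counts do not show which start made its RNA.

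The summed RNA of HOXB was higher in each MLL4KO library. HOXB summed to 79.8, 70.5 and 68.9 CPM in MLL4WT and 90.8, 88.7 and 89.8 CPM in MLL4KO, with no overlap. Its share of HOX counts was 21.9 ± 0.553% and 27.1 ± 0.314% (SD, n = 3). Of 7 tested members 3 rose and 4 missed the threshold, so that 42.9% were called, near the 41.4% of all tested genes. None fell with edgeR, DESeq2 or limma-voom, and 0 were lower at an unadjusted edgeR p under 0.05.

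HOXB9, a thoracic-level gene (chromosome 17, 48621159 to 48626356, minus strand), was at 6.39, 6.58 and 7.29 CPM in MLL4WT and 11.6, 11.3 and 12.5 CPM in MLL4KO. The lowest MLL4KO library was well above the highest MLL4WT library, and HOXB9 rose 1.73-fold (log2 0.79 ± 0.11, edgeR adjusted p = 0.000179). HOXB13, the most 5′ HOXB gene and a marker of prostate and distal gut (48724763 to 48729178), was at 17.7, 19.3 and 18.3 CPM in MLL4WT and 25.2, 25.1 and 25.3 CPM in MLL4KO. It rose 1.36-fold (log2 0.45 ± 0.07, edgeR adjusted p = 0.000354). HOXB9 and HOXB13 passed the test in all 18 alternative settings.

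HOXB6 (48595751 to 48604992) was at 5.65, 5.35 and 4.77 CPM in MLL4WT and 7.46, 6.66 and 6.91 CPM in MLL4KO. Its rise was 1.35-fold (edgeR adjusted p = 0.0221). The call was lost with the DESeq2 Wald test (adjusted p = 0.14), after thinning to the shallowest library (log2 0.14, adjusted p = 0.705) and without MLL4WT replicate 3 or MLL4KO replicate 1 (adjusted p = 0.0946 and 0.0839). HOXB6 shares 16.6% of its exon bases with HOXB3 on the same strand, so reads there could be assigned to either. Exons of the antisense RNA HOXB-AS3 lie opposite 16.3% of HOXB6 exon bases, and the labels do not say that strand was kept. HOXB-AS3 was at 0.549 to 0.594 CPM in MLL4WT and 0.798 to 1.04 CPM in MLL4KO, and did not pass (edgeR adjusted p = 0.181). HOXB7, the second most abundant HOX gene per kilobase, was at 33.4, 26.7 and 25.9 CPM in MLL4WT and 31.8, 30.7 and 30.4 CPM in MLL4KO. MLL4WT replicate 1 was its highest library of all, and HOXB7 did not pass the test (interval of the ratio 0.968 to 1.26, edgeR adjusted p = 0.212). HOXB7 passed upward without that library (log2 0.24, adjusted p = 0.00449) and, with it kept, with a run code term (0.00496) and with GC and length trends removed (0.0272).

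HOXB5 was at 4.90, 2.54 and 3.22 CPM in MLL4WT and 6.12, 4.62 and 3.79 CPM in MLL4KO, which overlap (edgeR adjusted p = 0.0999). HOXB5 passed upward without MLL4WT replicate 1 (log2 0.76, adjusted p = 0.00378) and, with all libraries kept, with no filter (0.0279), with GC and length trends removed (0.0372) and with a run code term (0.000631). HOXB3 and HOXB4, the 3′ genes of the cluster and paralogues of the lowered HOXA3 and HOXA4, did not pass. HOXB3 was at 4.37 to 5.28 CPM in MLL4WT and 3.63 to 4.99 CPM in MLL4KO (interval of the ratio 0.685 to 1.15), and HOXB4 at 3.96 to 5.94 and 3.73 to 4.99 CPM (interval 0.737 to 1.32). The upper bounds for the ratio of HOXA3 and HOXA4 were 0.193 and 0.403, below the lower bounds of HOXB3 and HOXB4.

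**Figure D4:**
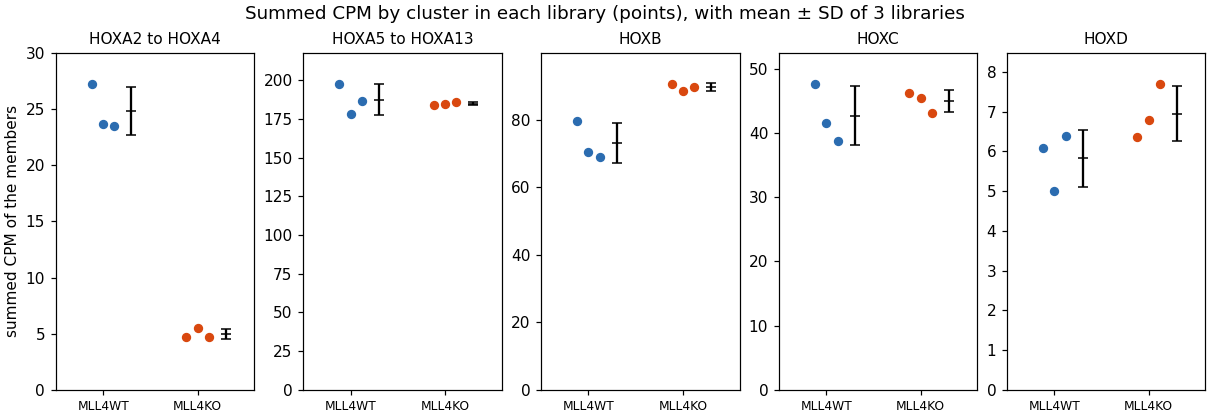
Summed CPM of the members in each library, for HOXA2 to HOXA4, HOXA5 to HOXA13 and the clusters HOXB, HOXC and HOXD, with the mean and SD of the 3 libraries of a genotype and axes from 0. HOXA2 to HOXA4 sum to 23.5 to 27.3 CPM in MLL4WT and 4.72 to 5.48 CPM in MLL4KO, and HOXB is higher in every MLL4KO library.

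In HOXC 1 gene rose and 1, nearer the 3′ end, fell. That is 28.6% of the 7 tested members, where 41.4% of all tested genes were called. HOXC9, which specifies thoracic motor neurons (chromosome 12, 53994895 to 54003337, plus strand), was at 9.51, 8.02 and 6.95 CPM in MLL4WT and 12.5, 12.5 and 11.2 CPM in MLL4KO. The groups did not overlap, and HOXC9 rose 1.52-fold (log2 0.61 ± 0.13, edgeR adjusted p = 0.00242). The call was lost when all libraries were thinned to the shallowest (adjusted p = 0.0592).

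HOXC5, toward the 3′ end (54032853 to 54035358), was at 8.92, 7.20 and 6.20 CPM in MLL4WT and 4.87, 2.71 and 4.06 CPM in MLL4KO. It fell 1.85-fold (log2 -0.89 ± 0.21, edgeR adjusted p = 0.00571). This size depends on how reads were shared, because 59.9% of its exon bases also belong to the unnamed gene ENSG00000273046, which had 0, 0 and 27 counts in MLL4WT and 6, 30 and 16 in MLL4KO. With HOXC5 and its same-strand overlapping IDs summed, the levels were 8.92, 7.20 and 7.75 CPM against 5.57, 4.56 and 5.12 CPM, and the fall was smaller (log2 -0.62, edgeR adjusted p = 0.00417). That sum was chosen after seeing the data. Within the 2 run codes that hold both genotypes, the log2 ratio of HOXC5 alone was -1.09 and -0.35.

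HOXC4, the most 3′ HOXC gene, was at 1.78, 0.892 and 0.919 CPM in MLL4WT and 2.34, 1.6 and 1.79 CPM in MLL4KO. It missed the threshold (log2 0.80 ± 0.33, edgeR adjusted p = 0.0702) and passed upward without MLL4WT replicate 1 (log2 1.09, adjusted p = 0.0113), with limma-voom (0.0378), with a run code term (0.00716) and with GC and length trends removed (0.0455). HOXC4 shares 17.8% of its exon bases with HOXC6. HOXC6, HOXC10 and HOXC13, at 6.26 to 10.8 CPM in every library, did not pass (intervals of the ratio 0.831 to 1.26, 0.945 to 1.40 and 0.857 to 1.19). HOXC8, at 0.399 to 0.924 CPM, was too low for a narrow interval (0.491 to 1.74).

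HOXD8, which is used in trunk patterning (chromosome 2, 176129694 to 176132695), was at 5.50, 4.25 and 5.74 CPM in MLL4WT and 5.67, 5.98 and 6.32 CPM in MLL4KO. The groups overlapped and HOXD8 did not pass (interval of the ratio 0.92 to 1.47, edgeR adjusted p = 0.289). It stood out among its neighbours in either genotype, since HOXD9, beside it on the 5′ side, had no count. HOXD3 and HOXD4 had 30 and 32 counts over all 6 libraries, and both lie under exons of the same-strand gene ENSG00000278500, with 23, 10 and 2 counts in 3 libraries.

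Set out by paralogue number, genes of one number differed in their calls, and differences between paralogues were not tested. Of the paralogue 9 genes HOXB9 and HOXC9 rose while HOXA9 did not pass, and of the paralogue 13 genes HOXA13 and HOXB13 rose while HOXC13 did not pass. Of the 5 tested genes of paralogues 1 to 4, 2 fell and none rose. Of the 10 tested genes of paralogues 5 to 8, 1 rose and 1 fell, and of the 9 of paralogues 9 to 13, 4 rose and 1 fell. Over all tested genes 19.8% rose and 21.6% fell, and with so few genes in a band nothing is read from these counts. Paralogues 1 to 4 made up 11.5, 11 and 10.4% of HOX counts in MLL4WT and 4.68, 5.26 and 5.47% in MLL4KO. Paralogues 9 to 13 made up 59.4 to 60.2% in MLL4WT and 62.4 to 64.5% in MLL4KO. In the order of levels per kilobase over the 24 tested genes, HOXA3 went from place 11 to 22 and HOXA4 from 10 to 19. HOXC5 went from 9 to 17 and HOXB9 from 15 to 8. With the longest annotated transcript as the length, these places were 8 to 23, 12 to 19, 11 to 18 and 17 to 10. The MLL4WT places of HOXA3, HOXA4 and HOXC5 are not firm, because their levels there did not differ by more than about their spread.

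Coding genes beside the clusters were compared in the same fit. Next to the 3′ side of HOXA, 105 kb from HOXA2, the nearest tested non-HOX coding gene was SKAP2, which encodes a Src-family kinase adaptor. SKAP2 was at 25.9, 29.5 and 26.1 CPM in MLL4WT and 15.6, 17.0 and 16.6 CPM in MLL4KO, a fall of 1.67-fold (edgeR adjusted p = 2.0e-05). On the 5′ side the nearest was HIBADH, a valine breakdown enzyme gene 325 kb away, at 25.4 to 26.5 and 21.9 to 24.3 CPM (edgeR adjusted p = 0.0712). HOXA4 and SKAP2, which fell, thus lie on the 3′ side of HOXA5, which did not pass. The annotated span of HOXA3, which also fell, runs across HOXA5, and the arrangement was not tested.

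Around HOXB, 3 of 10 tested coding genes within 500 kb rose and 2 fell, with a median log2 ratio of 0.01, where 41.4% of all tested genes were called. The nearest was TTLL6 on the 5′ side at 33.1 kb (edgeR adjusted p = 0.919), and on the 3′ side SNX11 at 405 kb (adjusted p = 0.256). Around HOXC, 2 of 16 rose and 5 fell, at a median of -0.05, and both counts lie near that share. SMUG1, a uracil-DNA glycosylase gene 65.2 kb from the 3′ end, fell 1.61-fold, and CALCOCO1, 211 kb from the 5′ end, rose 1.43-fold (edgeR adjusted p = 6.44e-05 and 0.00195). Beside HOXD, MTX2 and LNPK did not pass (adjusted p = 0.499 and 0.0625).

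**Figure D5:**
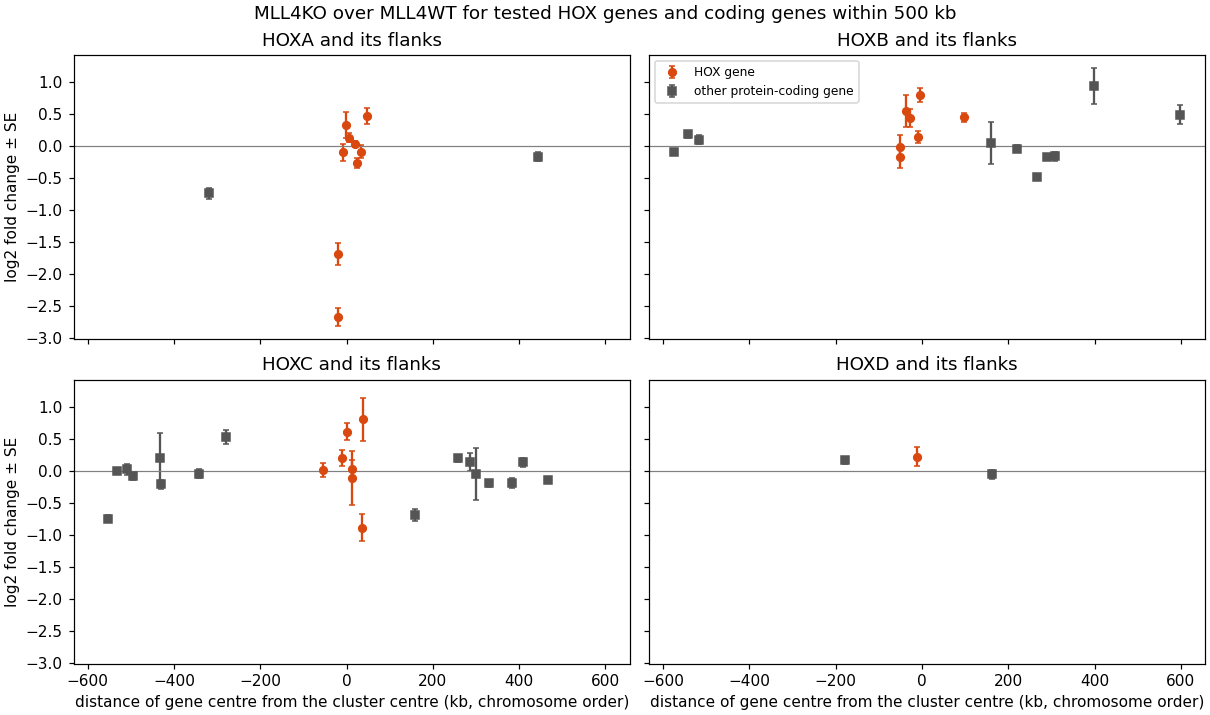
Log2 fold change with its standard error for tested HOX genes (orange) and other protein-coding genes within 500 kb of each cluster (grey), against the distance of the gene's centre from the centre of the cluster in kb, in chromosome order. HOXA3 and HOXA4 lie under every flanking gene shown, and SKAP2, on the left of HOXA, is at -0.74.

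Noncoding RNAs of the clusters were mostly low. Of 19 such RNAs on the list 18 matched, 9 were tested and 2 had no count. Of the 9 tested 1 fell and none rose, where 41.4% of all tested genes were called. HOXA-AS2, an antisense RNA that spans much of HOXA3 and all of HOXA4, was at 1.19, 1.1 and 1.55 CPM in MLL4WT and 0.298, 0.185 and 0 CPM in MLL4KO. It fell as well (7.21-fold, log2 -2.85 ± 0.56, edgeR adjusted p = 0.00152), from 51 counts to 9. The labels do not say that the library kit keeps strand, and 8.69% of HOXA3 exon bases and 14.5% of HOXA4 exon bases lie opposite exons of HOXA-AS2, so their reads cannot be told apart there. HOXA-AS3, whose exons lie opposite 62.5% of the exon bases of HOXA7 and 39.3% of those of HOXA6, was at 1.78 to 3.36 and 2.13 to 2.71 CPM (adjusted p = 0.898). HOXA10-AS was at 16.9, 19.5 and 17.6 CPM and 16.2, 16.4 and 12.1 CPM, and did not pass (edgeR adjusted p = 0.0779). Its exons lie opposite 16.4% of the exon bases of HOXA10 and 13.9% of those of HOXA9, where reads cannot be told apart either. HOTAIR, the HOXC noncoding RNA studied for its link to Polycomb, had 1 count in all.

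Among the TALE homeodomain genes, whose proteins bind DNA together with HOX factors, MEIS2 was at 33.7, 43.9 and 42.4 CPM in MLL4WT and 24.9, 25.5 and 25.9 CPM in MLL4KO. Every MLL4KO library was below every MLL4WT library, a fall of 1.6-fold (edgeR adjusted p = 7.59e-05). MEIS3 was at 18 to 24.2 CPM in MLL4WT and 22 to 23 CPM in MLL4KO and did not pass (edgeR adjusted p = 0.266). PBX2, PBX3, PBX4 and PKNOX1 did not pass either (edgeR adjusted p = 0.466, 0.303, 0.0827 and 0.405). Of a list of caudal and retinoid regulators, cluster neighbours, CTCF and GMNN, 7 of 14 were tested. These were CDX2, RARA, RARG, RXRA, RXRB, CTCF and GMNN, with no cluster neighbour among them. None of the 7 passed in edgeR, where 41.4% of all tested genes were called. Their log2 fold changes ran from -0.10 to 0.11, with 0 at an unadjusted edgeR p under 0.05. CDX2, a caudal factor, had overlapping values in the genotypes (edgeR adjusted p = 0.341).

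Some chromatin regulators of HOX genes rose, some fell and others did not pass, where 41.4% of all tested genes were called. Of 11 trithorax-side genes, 4 rose, 3 fell and 4 did not pass. MLLT3, of the elongation complexes joined to MLL1 in leukaemia, rose 1.62-fold, and PSIP1, which tethers MLL1 to chromatin, rose 1.32-fold (edgeR adjusted p = 0.000123 and 3.4e-05). DOT1L, the H3K79 methyltransferase, fell 1.26-fold and KDM6A, an H3K27 demethylase that works with MLL4, fell 1.14-fold (edgeR adjusted p = 0.000368 and 0.0254). KMT2A, which encodes MLL1, was at 124 to 130 CPM in MLL4WT and 126 to 128 CPM in MLL4KO. Of 23 Polycomb genes, 8 rose, 3 fell and 12 did not pass, a called share near that of all genes, with a median log2 fold change of 0.06. JARID2, a targeting subunit of the repressive complex PRC2, rose 1.83-fold from 45.0 to 48.4 CPM in MLL4WT to 82.4 to 87.8 CPM in MLL4KO, and RBBP4 rose 1.26-fold (edgeR adjusted p = 2.28e-07 and 0.00018). BMI1 and RING1, subunits of PRC1, fell 1.34-fold and 1.39-fold (edgeR adjusted p = 6.75e-05 and 0.00019). The PRC2 enzyme gene EZH2 was at 95.4 to 109 and 94.9 to 102 CPM (edgeR adjusted p = 0.59).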

How the data were processed

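The authors deposited estimated counts per Ensembl gene ID, whole numbers with no scaling between libraries, per the file headers and values. Per the submitters' processing notes, which give no step or order, Salmon 1.8.0, DESeq2 1.44.0 and hg38 were used. Symbols came from a gene name table and coordinates, lengths and GC content from GENCODE 29. All 6 columns were used.

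Genes were filtered with filterByExpr of edgeR 4.0.16 (R 4.3.3), which kept 14543, scaled by TMM and tested by the quasi-likelihood test with 4 residual degrees of freedom, adjusted over all tested genes. Standard errors came from the F statistic. The shallowest library holds 3 counts at 0.446 CPM. The test was first run on simulated data with known changes. The members and lists were chosen with earlier results of these data known. Every member was accounted for. Values were given for tested members that passed or reached 5 CPM and, chosen after their values were seen, for others. From each list the most significant called genes were named, with others chosen after their values were seen, and the nearest tested coding gene on each side of a cluster was given. One item of the cofactor list is not reported here.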

Additional observations from a re-analysis of the deposited data

How the results depend on the processing

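The settings tried were 3 other scalings, no filter, a stricter filter (1 CPM in 3 libraries), the DESeq2 1.42.0 Wald test, limma-voom 3.58.1, the replicate number as a block, a term for the run code, thinning to 6829400 counts, removal of GC and length trends by lowess (span 0.3), leaving out each library and, added after seeing the data, HOXC5 summed with overlapping IDs. No called HOX gene changed direction in any of them, and HOXA3, HOXA4, HOXB9, HOXB13 and HOXC5 passed in all 18. The number of HOX genes that rose, 5, became 9 with the run code term, 10 with GC and length trends removed and 2 after thinning, and ranged from 4 to 8 when a library was left out, highest without MLL4WT replicate 1. The number that fell, 4, stayed between 3 and 5. The cause of these shifts was not tested, except that thinning leaves fewer counts. Over all genes, thinning left 1792 rises and 1927 falls, against 2885 and 3136. Same-numbered libraries of the genotypes deviated together little (correlations of 0.0245, 0.0341 and -0.0146). MLL4WT replicate 1 was closest to MLL4KO replicate 1 (0.0245), its own number. MLL4WT replicate 2 was closest to MLL4KO replicate 3 (0.0453) and MLL4WT replicate 3 to MLL4KO replicate 1 (0.0499). Correlations this small, from 3 libraries of each genotype, cannot show whether the numbers pair the libraries. The pairs at 0.0453 and 0.0499 each share a run code, as do the libraries numbered 2. With the replicate block 5 HOX genes rose and 4 fell, and over all genes 2689 rose and 3024 fell. Depth limits the 14 untested members and HOXC8, whose interval spans a ratio of 0.491 to 1.74.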

Other observations

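Other coding genes within 500 kb of HOXB and HOXC, chosen after their values were seen, moved in both directions. ATP5MC1, which encodes a subunit of the ATP synthase ring and lies 164 kb from HOXB13, was at 125, 127 and 125 CPM in MLL4WT and 88.9, 88.7 and 92.7 CPM in MLL4KO, a fall of 1.40-fold (edgeR adjusted p = 7.41e-06). IGF2BP1, an oncofetal RNA-binding protein gene 268 kb from HOXB13, was at 1.63, 1.99 and 0.976 CPM and 2.98, 3.02 and 2.59 CPM, a rise of 1.91-fold (edgeR adjusted p = 0.0174). PRR13, 492 kb from HOXC13, fell 1.68-fold from 142 to 146 CPM in MLL4WT to 84.1 to 87.5 CPM in MLL4KO (edgeR adjusted p = 2.1e-07). CBX5, which encodes the heterochromatin protein HP1 alpha and lies 175 kb beyond the 3′ end of HOXC, rose 1.14-fold (edgeR adjusted p = 0.00887).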
